A study of Mus musculus with 72 samples.

Results

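The genes described here encode 8 neuropeptides of the mouse suprachiasmatic nucleus (SCN), the hypothalamic nucleus that holds the master circadian clock: Avp, Vip, Grp, Nms, Prok2, Cck, Sst and Penk. They were found by symbol in the tables of gene expression and make up 8 of 24883 rows (24346 symbols), and none of the 8 was listed at 0 in any library. The SCN of 72 male C57BL/6 mice, 8 weeks old when the study began, was analysed by RNA sequencing, 1 mouse per library. The mice received a nitrogen-matched control diet (Ctrl) or a diet depleted of tryptophan (-Trp) for 2 weeks. They were kept either on a daily cycle of 12 h light and 12 h dark (LD) or without any light (DD), for 1 week in single cages before the diet and throughout it. Each of the 4 groups (Ctrl and -Trp in LD, and the same diets in DD) held 18 libraries, 3 at each of 0, 4, 8, 12, 16 and 20 h, given as zeitgeber time (ZT) in LD and circadian time (CT) in DD. The labels do not say how DD times were set in mice without a light signal, and the study's methods do not describe how the nucleus was cut out.

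A conflict in the files bears on every value below. The columns of the deposited tables carry a group, a time and a replicate number, but the values of the 36 control libraries in the study's own supplementary table of the SCN equal those of deposited columns with another name, in every gene compared for 36 of 36 columns. The libraries are therefore placed here in the order of that table, with the 36 -Trp libraries placed by continuing the same shift of columns, which no equal value checks. None of the 72 columns keeps its place between the 2 orders. The groups named Ctrl LD and Ctrl DD each mix, by time, LD and DD libraries of the order used here. The calls with the columns as named are given beside those of the main comparisons.

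Neuropeptides are cut from longer precursors, stored in dense-core granules and released onto G protein-coupled receptors, and in the SCN they keep neurons with separate clocks in time with each other and carry the time of day to the rest of the brain. Within the SCN, Vip and Grp are made in the ventral core, which receives the input from the retina, and Avp in the dorsal shell. Nms marks neurons spread over both regions, and Prok2 is a secreted output signal whose transcription is driven by CLOCK and BMAL1 through E-boxes. Sst and Penk (the enkephalin precursor) occur in scattered SCN neurons and more widely in the hypothalamus, and Penk is abundant in the striatum and Cck in the cerebral cortex.

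On GRCm38, the assembly also called mm10, Avp is at chr2:130580620-130582554 (minus strand, 3 exons), Vip at chr10:5639218-5647617 (plus), Nms at chr1:38939149-38950276 (plus) and Prok2 at chr6:99711299-99726392 (minus). Cck is at chr9:121489824-121495694 (minus), Sst at chr16:23889573-23890958 (minus) and Penk at chr4:4133531-4138819 (minus). FPKM counts fragments over the whole transcript, with no separate value for exons or untranslated regions. The gene next to Avp, Oxt (oxytocin), lies 3565 bases away, and transcripts of the 2 genes share an identical stretch of 127 bases, so that reads from that stretch can be assigned to either gene and Avp values are uncertain to that extent. The longest stretch shared by any other pair among the 8 genes and Oxt was 15 bases.

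The sequences before the start of transcription are shown for the members in which 2 motifs of the clock and of the response to light were found. On the control diet, in the order of the supplementary table, all 8 genes were lower in DD than in LD, as given below (background 41.1%). A link between the motifs and these differences was not tested. The motifs were CACGTG, the E-box bound by CLOCK and BMAL1, and TGACGTC or the longer TGACGTCA that contains it, the element bound by CREB, each searched on both strands. RefSeq entries were matched for 6 of the 8 genes (Avp, Vip, Nms, Prok2, Cck and Sst, build GRCm38.p6). Capitals mark the motif in the 250 bases before the start, written 5′ to 3′ on the strand of the gene, or in a window of 30 bases for Sst. Starts are those of RefSeq. The window of Sst lies before the RefSeq start, but inside the gene at the position given above, which is that of GENCODE.
Avp (chr2:130582589-130582838, minus strand): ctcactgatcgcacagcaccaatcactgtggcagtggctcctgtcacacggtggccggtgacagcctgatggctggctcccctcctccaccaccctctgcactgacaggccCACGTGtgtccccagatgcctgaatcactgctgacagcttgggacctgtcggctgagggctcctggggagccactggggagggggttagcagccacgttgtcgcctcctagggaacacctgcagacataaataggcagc
Prok2 (chr6:99726393-99726642, minus strand): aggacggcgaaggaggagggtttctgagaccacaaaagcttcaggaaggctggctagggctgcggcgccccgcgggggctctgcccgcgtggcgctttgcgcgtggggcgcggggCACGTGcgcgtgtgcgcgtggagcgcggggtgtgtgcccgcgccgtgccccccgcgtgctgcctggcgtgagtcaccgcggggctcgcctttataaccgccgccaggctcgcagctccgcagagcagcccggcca
Cck (chr9:121495695-121495944, minus strand): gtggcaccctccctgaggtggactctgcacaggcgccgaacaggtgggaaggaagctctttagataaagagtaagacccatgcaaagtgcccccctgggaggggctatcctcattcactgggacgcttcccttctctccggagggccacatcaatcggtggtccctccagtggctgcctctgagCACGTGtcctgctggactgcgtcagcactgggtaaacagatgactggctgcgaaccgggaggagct
Vip (chr10:5638968-5639217, plus strand): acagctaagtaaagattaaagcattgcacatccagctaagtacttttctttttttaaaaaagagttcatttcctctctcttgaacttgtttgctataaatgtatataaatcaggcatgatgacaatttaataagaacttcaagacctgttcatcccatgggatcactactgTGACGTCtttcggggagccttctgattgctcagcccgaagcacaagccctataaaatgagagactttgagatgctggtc
Sst (chr16:23890874-23890903, minus strand): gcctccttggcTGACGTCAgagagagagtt
CACGTG began 139 bases before the start of Avp, 135 before that of Prok2 and 66 before that of Cck, 3 of the 6 promoters, and was in 6.02% of 32851 promoters of the same length. TGACGTC, on either strand, was in 2 of 6 (Vip, 79 bases before the start, and Sst, where it stands within TGACGTCA) and in 2.78% of all promoters. The full TGACGTCA was in 1 of 6 and in 1.55% of all. The promoter of Nms held neither motif in this window.

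The levels of the 8 genes spanned more than 2 orders of magnitude, in FPKM, which is a level per length of transcript. Over all 72 libraries the median was 372 FPKM for Avp, 335 for Sst, 90.7 for Penk, 19.8 for Cck, 16.7 for Vip, 4.74 for Grp, 2.68 for Nms and 0.927 for Prok2. Avp and Sst, the 2 highest, were not separated in any group: Avp was above Sst in 13 of 18 libraries of Ctrl LD, and Sst had the higher median in -Trp LD, 413 against 327 FPKM. Every library of Ctrl LD, Ctrl DD and -Trp DD had more Sst than Penk with no overlap of their ranges, and every LD library had more Penk than Cck, again without overlap. The neighbours lower in the order, from Cck down to Prok2, overlapped in every group, and Cck and Vip changed places, Cck being the higher in LD (34.6 against 21.7 FPKM in Ctrl LD) and Vip in DD (14.3 against 10.1 in Ctrl DD). The spread differed too. The coefficient of variation over the 18 libraries of Ctrl LD was 19.0% for Sst, 21.4% for Grp and 24.9% for Penk, but 55.9% for Prok2, and in Ctrl DD it was 80.7% for Nms and 259% for Cck, with 1 library at 305 FPKM.

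**Figure D1:**
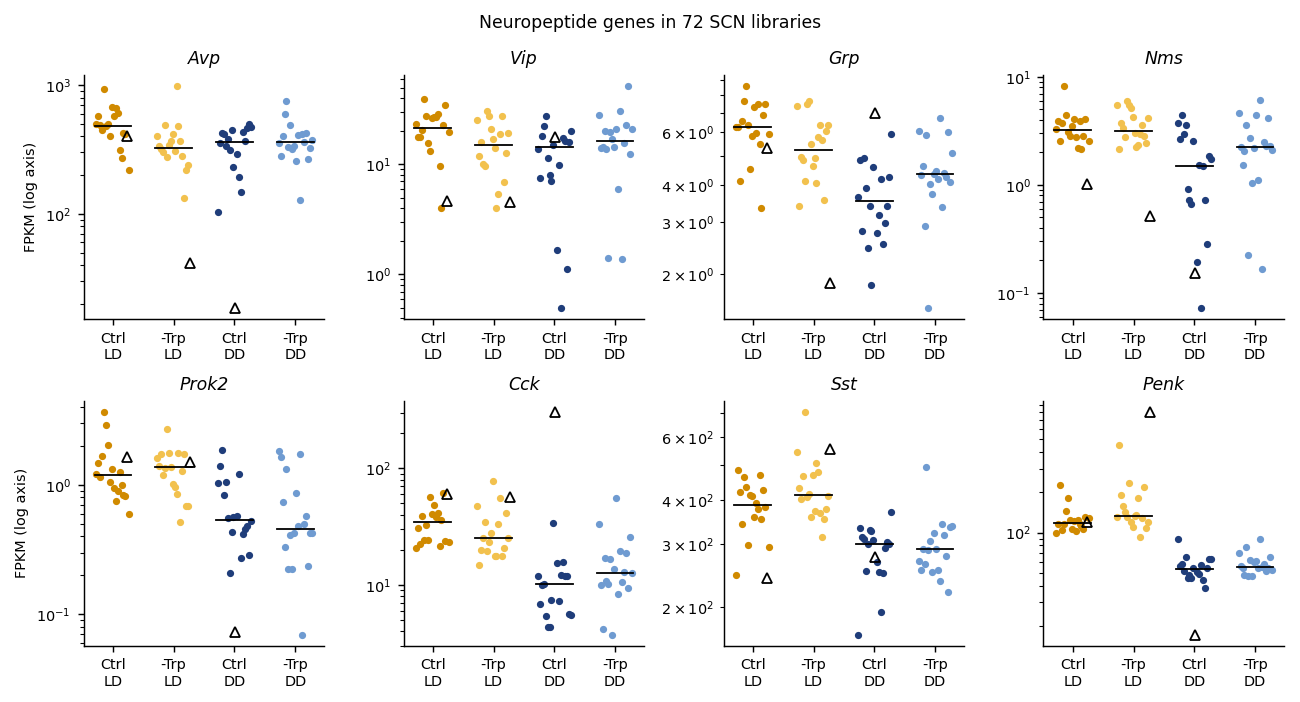
FPKM (log axis) of the 8 neuropeptide genes in each of the 72 libraries by group, with a bar at the median of 18 libraries. Open triangles are the 3 libraries with under 0.25 FPKM of both Six6 and Lhx1. Penk in LD lies above Penk in DD without overlap (lowest LD value 92.0 FPKM, highest DD value 89.5).

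The label of the tissue was checked against genes of the SCN and of its neighbours. Transcription factors of SCN neurons were present in nearly every library, with medians of 1.58 FPKM (LD) and 3.77 (DD) for Six6 and of 1.03 and 1.53 for Lhx1. Genes of neighbouring regions were present too: Oxt, of the paraventricular and supraoptic nuclei, had a median of 1510 FPKM in LD and 574 in DD, and Pomc, of the arcuate nucleus, 5.23 and 82.3. Other genes of the first 2 nuclei did not all follow Oxt. Of the 5 listed, 3 were lower and 0 higher in DD on Ctrl (limma, adjusted p under 0.05). On -Trp 3 were lower and 2 higher, Sim1 and Otp (78.8% and 79.6% of all genes were called on the 2 diets). The sum of FPKM per library was 403066 to 524705 in LD, and in DD 317417 to 353587 apart from 1 library (-Trp DD CT4 replicate 2) at 411944. LD and DD libraries thus differed in the genes of other regions and in their totals, and whether they were cut, prepared or sequenced together is not stated in the labels. There were 3 libraries that stood apart with under 0.25 FPKM of both Six6 and Lhx1, a limit chosen after their values were seen. Ctrl DD CT12 replicate 1 had 305 FPKM of Cck, 51.3 of the cortical gene Neurod6, 18.5 of Avp and 17.2 of Penk. In -Trp LD ZT20 replicate 3 there were 801 FPKM of Penk, 65.1 of the striatal receptor gene Adora2a and 41.3 of Avp. Ctrl LD ZT20 replicate 2 had 403 FPKM of Avp and 119 of Penk (medians of its group 483 and 117). It also had the lowest Nms and Sst of Ctrl LD (1.01 and 242 FPKM). Its Vip was at 4.68 FPKM and its Cck at 59.7 (medians of its group 21.7 and 34.6). Values without these 3 libraries are given below where a call or a value moved.

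Vip, Grp and Nms went together from mouse to mouse. Across the 72 libraries, after removal of the difference between LD and DD, log2 levels of Vip and Nms had a Pearson r of 0.76 (0.70 within LD, 0.79 within DD), those of Vip and Grp 0.57, and those of Nms and Prok2 0.55. Without the 3 libraries r was 0.80 for Vip and Nms. The genes most like Vip among 13241 genes were Nms, Vipr2 (the VIP receptor of the SCN, r = 0.75) and Zic2, and those most like Nms were Rgs16 (a regulator of G protein signalling in SCN neurons, r = 0.85), Zic1 and Zic4. The libraries share their dissection and normalization, so these values describe the samples and not a relation within cells, and in whole tissue fewer cells of a type and less RNA per cell cannot be told apart.

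A set of 5 DD libraries, singled out after their values were seen, had under 2 FPKM of Vip, between 0.493 and 1.66, against a median of 15.3 over the 36 DD libraries. Nms was between 0.0723 and 0.282 FPKM in the same 5 libraries and Vipr2 between 0.412 and 0.941. Of the SCN markers, Six6 was at 2.27 to 3.95 FPKM in them (DD median 3.77), and Lhx1 at 0.67 to 2.02 (DD median 1.53), under 0.9 in 4 of the 5. Rgs16 was at 5.75 to 8.2 FPKM, against medians of 11.4 in Ctrl DD and 13.2 in -Trp DD, and Avp at 149 to 468. They were Ctrl DD CT12 replicate 2, CT16 replicate 1 and CT20 replicate 1, and -Trp DD CT4 replicate 3 and CT16 replicate 1. The lowest Vip value in LD was 4.03 FPKM.

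Avp varied apart from Vip (r = 0.12), and its values went with those of Oxt (0.71) and Six6 (0.68). Both relations were smaller without the 3 libraries, 0.36 and 0.40. The r of Avp with Oxt was 0.85 within LD and 0.67 within DD. How much RNA of the paraventricular and supraoptic nuclei entered the Avp values was not tested. The genes most like Avp were Fkbp11, which encodes a chaperone of the secretory pathway, Spint2 and Cbln1 (r = 0.81, 0.80 and 0.77, or 0.58, 0.59 and 0.48 without the 3 libraries). For Cck, the nearest genes were Slc30a3, Slc17a7 (the vesicular glutamate transporter of cortical neurons) and Bhlhe22 (r = 0.80, 0.78 and 0.76, or 0.64, 0.64 and 0.55 without the 3 libraries), and r with Neurod6 was 0.70, or 0.38 without the 3 libraries. Penk was nearest to Drd2, Rgs9 and Adora2a (r = 0.81, 0.80 and 0.80, or 0.64, 0.61 and 0.82 without the 3 libraries), genes that are abundant in the striatal neurons that make enkephalin. Within LD, r between Penk and Adora2a was 0.94, whereas within DD, where Adora2a did not exceed 0.625 FPKM, it was -0.10. Other telencephalic markers did not agree within DD. There r of Penk was 0.71 with Drd2 but -0.70 with Ppp1r1b, against 0.87 and 0.94 within LD. Ppp1r1b had medians of 10.3 FPKM in Ctrl DD and 11.1 in -Trp DD. In bulk tissue the part of striatal RNA in the Penk values was not tested. Sst had r between -0.13 and 0.19 with the other 7 peptide genes, and its nearest gene was Rbm42 (0.56). Without the 3 libraries r of Sst was 0.48 with Avp, against 0.17 with them, and 0.67 with Rbm42. Prok2 was nearest to Gm14204, Fabp7 and Tmem51 (0.66, 0.62 and 0.60), and Grp to Vip, Tm4sf1 and Zic2 (0.57, 0.56 and 0.55).

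**Figure D2:**
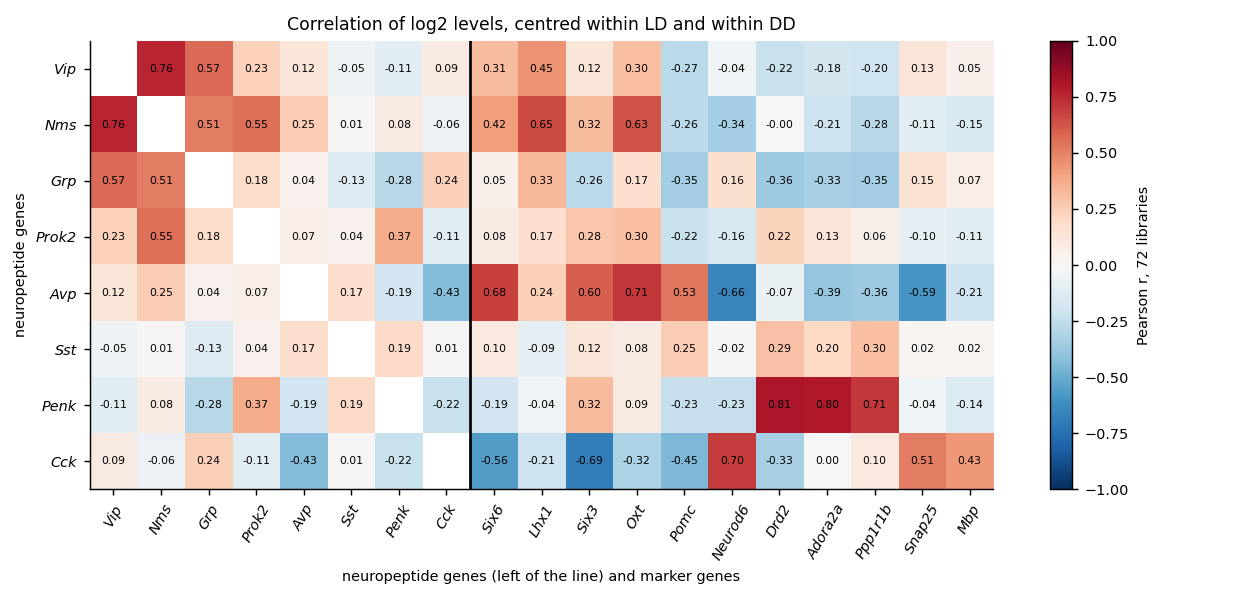
Pearson r over 72 libraries of log2(FPKM + 0.5), centred within LD and within DD, between the 8 neuropeptide genes (rows) and the same genes and 11 markers (columns), from -1 (blue) to 1 (red). Vip, Nms and Grp form 1 block (0.51 to 0.76), and Penk goes with Drd2 and Adora2a (0.81 and 0.80).

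**Figure D3:**
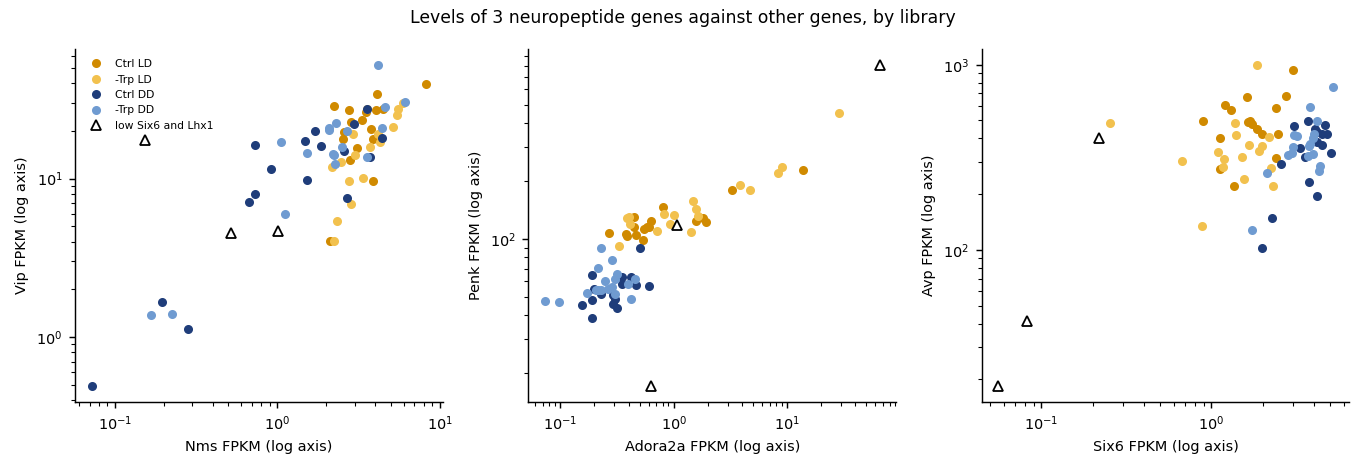
FPKM of Vip against Nms, Penk against Adora2a and Avp against Six6 in each library (both axes log), coloured by group, with open triangles for the 3 libraries low in Six6 and Lhx1. The 5 DD libraries with under 2 FPKM of Vip lie at the lower left of the first panel, and Penk rises with Adora2a among LD libraries.

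Rhythms were sought in each group with JTK_CYCLE, a rank test for a 24 h cycle, at the study's threshold of an unadjusted p under 0.05. In Ctrl LD 1 of the 8 genes passed, Prok2, against a background of 7.11% of all 24883 rows. Its 3 libraries at ZT4, the time of its highest mean, were at 1.66, 2.89 and 3.66 FPKM. Those at ZT12, the time of its lowest mean, were at 0.757, 0.903 and 0.951. The exact JTK_CYCLE p was 0.0196 and the amplitude of a fitted cosine 0.47 ± 0.119 on the log2(FPKM + 0.5) scale (SE, n = 18; peak at 4.07 ± 0.964 h), and leaving out any 1 of the ZT4 libraries ended the call (highest p 0.07). Without the 3 libraries low in Six6 and Lhx1, Prok2 had an exact JTK_CYCLE p of 0.00588 and Cck also passed (0.0224, against 0.115 with them).

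Avp, a textbook rhythmic output of the clock, had its highest mean at ZT4 (620 ± 271 FPKM, SD, n = 3) and its lowest at ZT16 (337 ± 77.4) in Ctrl LD. It did not pass JTK_CYCLE (exact p = 0.0916), while the cosine fit of limma placed its peak at 6.40 ± 1.16 h (SE). In -Trp LD the mean went from 595 ± 354 FPKM at ZT12 to 168 ± 110 at ZT20, with the same JTK_CYCLE p. No gene of the 8 passed in -Trp LD, where the background was 7.42%. Vip, Grp, Sst and Penk had p between 0.872 and 1.0 in Ctrl LD, and in -Trp LD p was 1.0 for Vip, Grp, Cck and Penk.

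In Ctrl DD 2 genes passed, Nms and Penk, where the background was 4.92%. Nms was at 2.68, 3.74 and 4.41 FPKM at CT0, the time of its highest mean. At CT12, the time of its lowest mean, it was at 0.153, 0.195 and 1.53. The JTK_CYCLE p for Nms was 0.00576, the amplitude 0.98 ± 0.234 (log2 scale) and the peak 1.58 ± 0.907 h, and the call was kept without each of the 18 libraries in turn (p from 0.00185 to 0.0224). The 2 lowest of its CT12 libraries and the lowest at CT16 and CT20 are among the libraries described above with under 0.25 FPKM of both Six6 and Lhx1 or under 2 FPKM of Vip. Without the first of these, Ctrl DD CT12 replicate 1, the exact p was 0.0163, and the part of the others together was not tested. Penk had its highest mean at CT0 (68.0 ± 18.6 FPKM) and its lowest at CT12 (38.9 ± 18.8), with an exact JTK_CYCLE p of 0.0441. The call was kept in 10 of the 18 fits that left out 1 library and lost without CT0 replicate 1, 2 or 3, CT8 replicate 2, CT12 replicate 1 or CT20 replicate 1, 2 or 3 (exact p up to 0.147). In -Trp DD no gene of the 8 passed, and the background was 1.42%. There Nms was highest at CT12 (1.12, 4.43 and 6.09 FPKM), the time of its lowest mean in Ctrl DD, and Prok2 had 0.743, 1.65 and 1.84 at CT0 and 0.223, 0.413 and 0.423 at CT8.

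An unadjusted p under 0.05 in the cosine fit of limma was met by Avp and Prok2 in Ctrl LD (background 14.7% of 14425 genes) and by Avp in -Trp LD (16.7%). In DD it was met by Nms, Prok2 and Penk on Ctrl (background 8.07%) and by no peptide gene on -Trp (2.2%). Without the 3 libraries, Avp in -Trp LD and Prok2 in Ctrl DD no longer met it and Cck in Ctrl LD did. With the columns as named it was met by Avp and Cck in Ctrl LD (background 68.3%), by Nms and Penk in -Trp LD (4.57%), by Avp, Prok2 and Penk in Ctrl DD (59.9%) and by the same 3 in -Trp DD (13.5%).

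After Benjamini-Hochberg adjustment over all rows JTK_CYCLE called no peptide gene in any group with the order used here, and the smallest adjusted exact p was 0.475 (Prok2, Ctrl LD). The background in LD was 0.0844% on Ctrl and 0.374% on -Trp, and in DD it was 0.0% on both diets. Under the names 1 gene passed, Penk in Ctrl LD (adjusted exact p = 0.0393, background 29.8%), with none in Ctrl DD (12.1%), -Trp DD (0.0884%) or -Trp LD (0.0%). As a check of time, JTK_CYCLE called 9 of 12 clock genes on Ctrl and 4 on -Trp in LD, but 0 and 1 in DD. Dbp, a direct CLOCK and BMAL1 target, peaked at 9.32 ± 0.316 h in Ctrl LD and 9.19 ± 0.747 h in -Trp LD, Arntl (BMAL1) had its highest mean at ZT0 in both, and Per2 did not pass in any group. With the columns as named the called peptide genes were Penk in Ctrl LD (exact p = 0.0109, background 37.8%), Avp and Penk in Ctrl DD (0.034 and 0.0196, background 27.6%) and Penk in -Trp DD (0.00203, background 6.68%), with no call in -Trp LD (background 2.48%). Neither Prok2 in Ctrl LD nor Nms in Ctrl DD passed under the names, and the clock genes called were then 8, 0, 4 and 6.

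**Figure D4:**
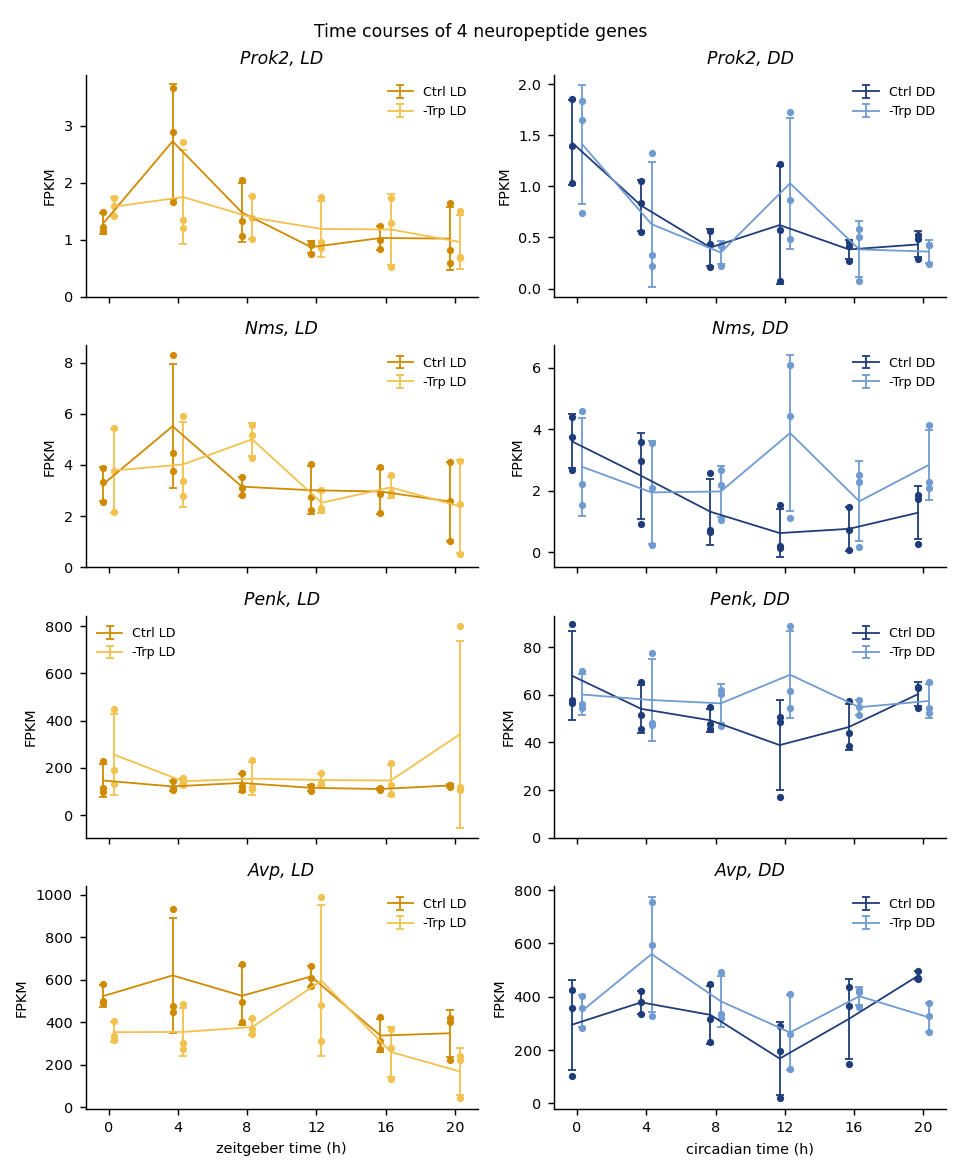
FPKM of Prok2, Nms, Penk and Avp by time in LD (left, ZT) and DD (right, CT) on both diets, with 3 points per time and lines through the means ± SD (n = 3). Prok2 is highest at ZT4 in Ctrl LD (mean 2.73 FPKM). Nms falls from CT0 to CT12 in Ctrl DD and has its highest mean at CT12 in -Trp DD. No rhythm of Nms passed in -Trp DD, and its rhythm was not called different between the diets.

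The comparison of DD with LD asks whether the light schedule alters the level of each peptide gene. On the control diet all 8 genes were lower in DD than in LD at an adjusted p under 0.05 (limma, Benjamini-Hochberg over 14425 genes), against a background of 41.1% of genes lower and 78.8% of genes called in either direction. The median difference of the 8 was -0.74 on the log2(FPKM + 0.5) scale and that of all genes -0.02. With most genes of the tissue called, and with markers of other regions and the library totals differing in the same comparison, light and other differences between LD and DD libraries cannot be told apart.

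Penk had the clearest difference. It ranged from 99.0 through a median of 117 to 229 FPKM in Ctrl LD and from 17.2 through 53.1 to 89.5 in Ctrl DD, so the ranges did not overlap, as was true of 22.1% of the genes tested. The difference was -1.18 ± 0.115 (SE; adjusted p = 4.8e-11, n = 18 and 18), a 2.26-fold lower level. The striatal genes Drd2 and Adora2a had medians of 5.39 and 0.595 FPKM in Ctrl LD and of 3.44 and 0.298 in Ctrl DD, with neither at 0 in any library, and their part in the Penk difference was not tested. Cck, whose protein is a gut and brain peptide, went from 20.5, 34.6 and 61.7 FPKM (lowest, median and highest) to 4.31, 10.1 and 305, the last in the library rich in Neurod6. Its difference was -1.45 ± 0.323 (adjusted p = 0.000151), and -1.63 ± 0.195 without the 3 libraries, but -0.59 ± 0.294 (adjusted p = 0.0677) with Six6 and Lhx1 levels as covariates, which ended the call.

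Nms went from 1.01, 3.20 and 8.29 FPKM in Ctrl LD to 0.0723, 1.51 and 4.41 in Ctrl DD, a difference of -0.97 ± 0.221 (adjusted p = 0.000196). Grp, the gastrin-releasing peptide gene, went from 3.35, 6.26 and 8.62 to 1.84, 3.52 and 6.99 FPKM (-0.57 ± 0.118, adjusted p = 5.7e-05). The ranges of both genes overlapped, and Grp had the lower mean in DD at 6 of 6 times. Vip went from 4.03, 21.7 and 39.6 to 0.493, 14.3 and 27.5 FPKM, also lower at 6 of 6 times (-0.81 ± 0.358, adjusted p = 0.0388), but its call was lost on leaving out any 1 of 14 libraries among the 36, Ctrl DD CT12 replicate 2, CT16 replicate 1 and CT20 replicate 1 with the most effect (adjusted p up to 0.0755), and with no filter on low genes (0.0556).

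Prok2 went from 0.595, 1.18 and 3.66 FPKM in Ctrl LD to 0.0727, 0.537 and 1.86 in Ctrl DD (-0.63 ± 0.137, adjusted p = 0.00011). Avp went from 220, 483 and 933 FPKM to 18.5, 362 and 498, ranges that overlapped (-0.67 ± 0.277, adjusted p = 0.0288). The difference was -0.44 without Ctrl DD CT12 replicate 1, 1 of the 3 libraries. The call was lost without Ctrl LD ZT12 replicate 2 or without Ctrl DD CT0 replicate 1 (adjusted p up to 0.0541). Sst, which encodes somatostatin, moved least, from 242, 387 and 484 to 168, 300 and 370 FPKM (-0.29 ± 0.091, adjusted p = 0.00396).

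On the -Trp diet 4 of the 8 genes were lower in DD and none was higher, against a background of 41.7% lower and 79.6% in either direction. Penk again did not overlap (92.0, 134 and 801 FPKM in LD, 46.9, 55.5 and 89.0 in DD), as in 15.7% of genes, and the difference was -1.41 ± 0.192 (adjusted p = 5.69e-08). Prok2 was lower by -0.64 ± 0.15 (0.000242), Cck by -0.98 ± 0.266 (0.00122) and Sst by -0.47 ± 0.085 (8.26e-06). The 4 genes that did not pass were Avp (0.34 ± 0.224, adjusted p = 0.163, or 0.20 without -Trp LD ZT20 replicate 3), Vip (0.15 ± 0.345, 0.695), Grp (-0.13 ± 0.14, 0.408) and Nms (-0.43 ± 0.251, 0.116). Nms passed without -Trp LD ZT20 replicate 3, 1 of the 3 libraries (-0.54, adjusted p = 0.0343), and Avp passed as higher in DD without -Trp LD ZT12 replicate 2 or -Trp DD CT12 replicate 3 (0.45 in both, adjusted p from 0.0455). With Six6 and Lhx1 as covariates Penk (-0.41, adjusted p = 0.0957), Prok2 (-0.52, 0.0591) and Sst (-0.28, 0.0635) did not pass and Vip (-1.18), Grp (-0.75) and Nms (-1.48) did, while Cck stayed called (0.047). The sum of the SCN neuron markers was 23.8 to 63.2 FPKM in -Trp LD and 32.0 to 67.3 in -Trp DD. By gene, 6 of the 9 markers were higher in DD and 0 lower (limma, background 37.9% and 41.7%). The covariates were among them, Six6 by 1.24 (adjusted p = 7.92e-09) and Lhx1 by 0.56 (adjusted p = 0.000256). On Ctrl the covariates were higher in DD too, by 0.92 and 0.36. Of the 9 markers 4 were higher in DD on Ctrl and 1 was lower, Rgs16 by -0.54 (limma, background 37.7% higher and 41.1% lower).

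These directions hang on the order of the columns. In the order used here, every library named -Trp DD was an LD library and every library named -Trp LD a DD library. With the columns as named, no peptide gene differed between LD and DD on the control diet (background 5.96%), and on -Trp 6 of the 8 were called and all 6 were higher in DD (background 40.4% higher and 78.0% in either direction), Penk by 1.37 and Cck by 1.22 on the log2 scale. The rhythm itself was not called different between LD and DD for any of the 8 genes on either diet (limma F-test of cosine and sine, backgrounds 0.0416% and 0.0277%). The smallest unadjusted p was 0.0253, for Nms on Ctrl, and that was the 1 value under 0.05 in the 16 tests. Under the names 4 genes (Avp, Cck, Sst and Penk) differed in rhythm on Ctrl, where 72.5% of all genes did, and none on -Trp (0.0139%).

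**Figure D5:**
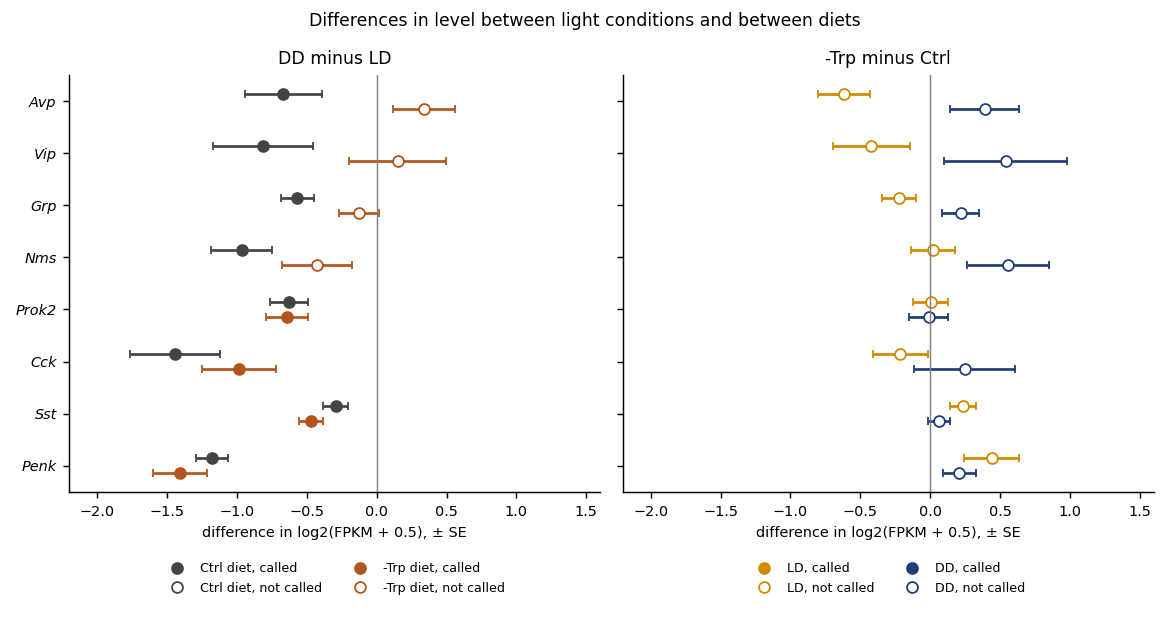
Differences in log2(FPKM + 0.5) ± SE for the 8 genes, DD minus LD on each diet (left) and -Trp minus Ctrl in LD and in DD (right). Filled circles passed an adjusted p under 0.05. All 8 genes are lower in DD on Ctrl, 4 are lower on -Trp, and no diet difference passed.

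The comparison of the diets asks whether lack of tryptophan alters the peptide genes. In LD 0 of the 8 genes passed in level (limma, background 1.25%). Avp had the smallest p. It was at 220, 483 and 933 FPKM (lowest, median and highest) in Ctrl LD and at 41.3, 327 and 991 in -Trp LD, and its mean was lower on -Trp at 6 of 6 times. The difference was -0.62 ± 0.185 (adjusted p = 0.0989), and of the 36 libraries left out in turn 1 brought it past the threshold, -Trp LD ZT12 replicate 2 with the highest Avp value (-0.69, adjusted p = 0.0443). Oxt went from a median of 1740 FPKM in Ctrl LD to 1340 in -Trp LD, and its part in the Avp values was not tested. Penk had the higher mean on -Trp at 6 of 6 times (0.44 ± 0.196, adjusted p = 0.323, or 0.29 without -Trp LD ZT20 replicate 3) and Sst at 5 of 6 (0.24 ± 0.093, adjusted p = 0.242). The striatal gene Adora2a had medians of 0.595 FPKM in Ctrl LD and 1.46 in -Trp LD, and its part in the Penk values was not tested. The differences of Nms (0.02 ± 0.158) and Prok2 (0.00 ± 0.123) were within their errors, and those of Vip (-0.42 ± 0.274), Grp (-0.22 ± 0.123) and Cck (-0.21 ± 0.196) did not pass either. No peptide gene had ranges that did not overlap between the diets, in LD (background 0.0%) or in DD (0.00693%).

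In DD 0 of the 8 genes passed, where 14.4% of all genes did, and none had an unadjusted p under 0.05. Of the 8 differences 7 were above 0: Avp 0.39 ± 0.247 (adjusted p = 0.274), Vip 0.54 ± 0.438, Grp 0.22 ± 0.132, Nms 0.56 ± 0.295 (0.189), Cck 0.25 ± 0.36, Sst 0.06 ± 0.08 and Penk 0.21 ± 0.116 (0.208), with Prok2 at -0.01 ± 0.139. Without Ctrl DD CT12 replicate 1, Avp was at 0.20, Penk at 0.12 and Cck at 0.50, and Vip was at 0.34 without Ctrl DD CT20 replicate 1 and Cck at 0.13 without Ctrl DD CT12 replicate 3. The medians of Avp were nearly equal, 362 FPKM on Ctrl and 360 on -Trp. Each difference was under 2 times its standard error, so none was detectable with 18 mice a group. The rhythms did not differ between the diets in LD (0 of 8, background 0.0%) or in DD (0 of 8, background 0.0347%), where Penk and Nms had an unadjusted p under 0.05 but adjusted p of 0.64 and 0.704 (limma).

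The effect of the diet on Avp was called different between the light conditions, but the call was lost in several of the settings given below. Avp was the 1 gene of the 8 whose interaction of diet and light passed, against 7.87% of all genes in either direction and 2.4% in the direction of Avp, and the effect in DD was above that in LD by 1.01 ± 0.315 on the log2 scale (adjusted p = 0.0358, limma over all 72 libraries). Over the other settings tried with the same order and libraries the adjusted p ran from 0.0287 to 0.0555. It was 0.0482 without the 3 libraries, with a smaller difference of 0.66, and over 0.05 with Six6 and Lhx1 as covariates (0.80, adjusted p = 0.0541). It was also over 0.05 without any 1 of 5 libraries (Ctrl LD ZT4 replicate 2, Ctrl LD ZT20 replicate 1, -Trp LD ZT20 replicate 3, Ctrl DD CT16 replicate 1 and -Trp DD CT12 replicate 2, adjusted p from 0.053 to 0.0552). Vip had a difference of nearly the same size, 0.96 ± 0.527, with an adjusted p of 0.236. Of the 5 genes listed for the paraventricular and supraoptic nuclei, 2 passed above 0 and 0 below. They were Oxt (1.145, adjusted p = 0.031, limma) and Crh (0.855, adjusted p = 0.0197). With the columns as named the interaction of Avp was -0.14 (adjusted p = 0.742), and Nms, Prok2, Cck, Sst and Penk were called instead, all above 0 (background 40.5% above 0 and 77.5% in either direction).

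Under the names 4 genes were also lower on -Trp in LD (Nms, Prok2, Sst and Penk, background 34.4% lower, 65.4% in either direction) and 4 higher on -Trp in DD (Prok2, Cck, Sst and Penk, background 37.1% higher, 71.0% in either direction). In rhythm, Avp and Penk differed between the diets in LD (background 52.0%) and Avp in DD (35.0%). The difference for Penk was then -1.15 in LD and 0.79 in DD.

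The receptors and the machinery through which these peptides act were read from lists. Of 19 receptor genes 13 were expressed enough to be tested, and on the control diet 6 were higher and 3 lower in DD (background 37.7% higher, 41.1% lower), on -Trp 5 higher and 3 lower (background 37.9% and 41.7%). Oprm1, the mu opioid receptor, which binds enkephalin, had medians of 0.764 FPKM in Ctrl LD and 2.74 in Ctrl DD (1.44, adjusted p = 3.8e-11), and Oprd1, the delta receptor, 0.786 and 1.48 (0.78, adjusted p = 9.85e-10). The somatostatin receptor Sstr4 went from 0.629 to 1.84 FPKM (1.20 on the log2 scale, adjusted p = 3.57e-13) and Nmur2, a receptor of the NMS peptide, from 0.466 to 0.91 (0.56, adjusted p = 2.87e-06). Receptors that were lower in DD included Cckar, from 4.83 to 2.40 FPKM (-0.90, adjusted p = 5.9e-07), and Sstr5, from 2.03 to 1.43 (-0.40, adjusted p = 0.000765). The highest receptor was Sstr1, with a median of 9.35 FPKM in Ctrl LD and 9.08 in Ctrl DD, the lowest was Avpr1b (0.0065 in Ctrl LD, with a median of 0 in Ctrl DD), and Vipr2 did not pass between LD and DD on either diet (-0.23 and 0.35). None of the 13 receptor genes passed between the diets, where the background was 1.25% in LD and 14.4% in DD. Under the names 5 receptor genes were higher and 2 lower on -Trp in LD, and 3 higher and 4 lower in DD (background 65.4% and 71.0%).

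All 14 genes of peptide processing and the dense-core granule were tested. In DD 4 were higher and 7 lower on Ctrl, and 4 higher and 9 lower on -Trp, where 37.7% of all genes were higher and 41.1% lower on Ctrl and 37.9% and 41.7% on -Trp. Cpe, the carboxypeptidase that trims most neuropeptides, was the highest of the list with medians of 1120 FPKM in Ctrl LD and 605 in Ctrl DD (-0.69, adjusted p = 3.23e-15). Pcsk1n, an inhibitor of prohormone convertase, went from 324 to 144 FPKM (-1.08, adjusted p = 1.29e-11) and the granule peptide gene Vgf from 80.7 to 46.0 (-0.77, adjusted p = 1.36e-11). Scg5, a chaperone of a convertase, went from 261 to 176 FPKM (-0.47, adjusted p = 7.28e-12). The carboxypeptidase gene Cpd was higher in DD, 10.3 against 7.50 FPKM (0.57, adjusted p = 8.57e-13). Between the diets Scg5 was higher (0.15, adjusted p = 0.0406) and the granin gene Scg3 lower on -Trp in DD (-0.17, adjusted p = 0.00975), a share of the list (2 of 14) like that of all genes (14.4%), and no gene passed in LD (1.25%). Read by column name, 3 were higher and 7 lower on -Trp in LD, and 8 higher and 4 lower in DD (background 65.4% and 71.0%).

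The 8 other peptide genes of the SCN or nearby hypothalamus were called in both directions. On Ctrl 3 were higher and 4 lower in DD, on -Trp 3 and 3 (78.8% and 79.6% of all genes were called), and no gene of the list passed between the diets (1.25% in LD, 14.4% in DD). By column name 2 were higher and 1 lower on -Trp in LD, and 3 higher and 4 lower in DD. Nts (neurotensin) was the lowest against LD, from a median of 71.4 to 9.85 FPKM (-2.67, adjusted p = 4.07e-12), and Gal (galanin) went from 103 to 58.0 (-0.99, adjusted p = 0.00117). Pdyn (prodynorphin) went from 15.2 to 45.5 FPKM (1.34, adjusted p = 1.48e-07), Adcyap1, the PACAP gene, from 18.9 to 32.8 (0.70, adjusted p = 4.52e-06) and Cartpt, the highest of the list in Ctrl DD, from 50.6 to 126 (0.90, adjusted p = 0.00446). These directions in the 3 lists are those of the order of the supplementary table. With the columns as named no gene of the 3 lists was called between LD and DD on Ctrl (background 5.96%). On -Trp under the names 3 receptor genes were higher and 6 lower in DD. Of the processing genes 8 were higher and 4 lower, and of the other peptide genes 3 and 4 (background 40.4% higher and 78.0% in either direction).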

How the data were processed

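RNA sequencing libraries were made by the authors from SCN total RNA with the TruSeq stranded mRNA kit, and paired-end reads were aligned to mm10 with TopHat and summarised with Cufflinks (Trimmomatic is also named in the submitters' processing notes, without versions). The deposited tables hold the authors' FPKM, 1 table per group of 18 libraries, with 24883 rows, and whether libraries were scaled to each other is not given in the sources used here. Read numbers cannot be had from FPKM, the sequencing depth is thus unknown, and precision comes from the spread between mice. All per-sample columns were used, and of the 72 columns 36 were placed by equal values in the supplementary table and 36 by continuing its shift.

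Rhythms were tested by an implementation of JTK_CYCLE (Python 3.11.15, numpy 2.4.6, pandas 2.3.3) on the unscaled FPKM, with 1 period (24 h) and Bonferroni adjustment over 6 lags. Its p-values were checked against the supplementary table and were equal in 1987 of 1987 rows of Ctrl LD and 135 of 135 of Ctrl DD. Levels and rhythms were compared with limma 3.58.1 (R 4.3.3, trend) after scaling by medians of ratios (factors 0.909 to 1.083, from 15918 rows with no 0), on log2(FPKM + 0.5) of the 14425 genes whose mean reached 0.5 FPKM, with time as a factor for levels and as cosine and sine for rhythms. All 8 peptide genes were tested. P-values are adjusted by Benjamini-Hochberg over all genes tested with a threshold of 0.05, and replicates are separate mice. The scripts were tested on simulated data.

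The members and the gene lists were chosen with earlier results of these data known. All 8 members are named, from each list the called genes of smallest p (at most 5 per comparison) and its highest and lowest gene, and for each member the 3 genes of highest Pearson r. Six6, Lhx1, the 5 libraries low in Vip and the covariate were singled out after the values were seen. Alternatives were the columns as named, a pseudocount of 0.1 or 1, unscaled FPKM, no filter or 1 at a mean of 1 FPKM, another model of time, the replicate block, 1 fit for all 72 libraries, and leaving out each library in turn. Gene positions are from GENCODE M21 (GRCm38) and promoters from RefSeq (GRCm38.p6). Liver data were not used here.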

Additional observations from a re-analysis of the deposited data

Results flagged for a closer look

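The interaction of diet and light on Avp was singled out because the effect of the -Trp diet on its level was called different between LD and DD by the test of the difference itself. The effect was 1.01 ± 0.315 higher in DD than in LD on the log2(FPKM + 0.5) scale (limma, adjusted p = 0.0358). The diet effect was -0.62 ± 0.185 in LD (mean lower on -Trp at 6 of 6 times) and 0.39 ± 0.247 in DD (mean higher at 5 of 6 times), and neither passed alone. The effect in DD was 0.20 without Ctrl DD CT12 replicate 1, and the interaction 0.66 (adjusted p = 0.0482) without the 3 libraries low in Six6 and Lhx1. Oxt shares 127 bases of transcript with Avp. Its medians were 1740 and 1340 FPKM on Ctrl and -Trp in LD, and 526 and 707 in DD. The interaction for Oxt was 1.145 (adjusted p = 0.031, limma), and the part of Oxt in the Avp difference was not tested.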

How the results depend on the processing

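With the columns as named the number of peptide genes called changed by over 1.5 times in 8 of 13 counts: 4 (LD) and 4 (DD) between diets in level, 2 and 1 in rhythm, 0 between LD and DD on Ctrl in level and 4 in rhythm, 5 for the interaction and 1 rhythmic in -Trp DD. DD against LD on -Trp went from 4 genes, all lower, to 6, all higher. Log2 differences that turned sign under the names were, for the diet in LD, Avp 0.12, Nms -1.06, Prok2 -0.58, Sst -0.26 and Penk -1.15, and for the diet in DD, Avp -0.03, Vip -0.19 and Prok2 0.37. For DD against LD they were Avp 0.45, Vip 0.40 and Grp 0.17 on Ctrl, and Grp 0.46, Nms 1.09, Prok2 0.65, Cck 1.22, Sst 0.37 and Penk 1.37 on -Trp. For the interaction they were Avp -0.14, Prok2 0.95, Sst 0.52 and Penk 1.94. No column keeps its place. In the order used here, every library named -Trp DD was an LD library and every library named -Trp LD a DD library. DD against LD on -Trp under the names was thus LD against DD in that order. Libraries named Ctrl LD were LD libraries at ZT0 to ZT12 and DD libraries at ZT16 and ZT20, and those named Ctrl DD the reverse. Time by name and light condition thus ran together there.

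After Benjamini-Hochberg adjustment 0 peptide genes were rhythmic in Ctrl LD and 0 in Ctrl DD. The limma cosine fit without adjustment called 2 in Ctrl LD and 1 in -Trp LD, the time factor 2, 1 and, in -Trp DD, 1. Without the 3 libraries low in Six6 and Lhx1 there were 2 in Ctrl LD and 1 in Ctrl DD. With Six6 and Lhx1 as covariates the cosine fit called 3 in Ctrl LD and 1 in Ctrl DD, and 2 in -Trp LD. For the time factor, the fits without the 3 libraries and the covariate fit no share of all genes is given. Those counts therefore cannot be set against a background. The interaction count was 0 with no filter, with cosine and sine for time and with these covariates. The covariates also turned the sign of DD against LD on -Trp for Avp (-0.46) and Vip (-1.18) and of the diet in LD for Prok2 (-0.05), where a pseudocount of 1 (0.00) and FPKM as deposited (-0.01) did so as well. FPKM as deposited moved the median difference of all genes between DD and LD from -0.02 to -0.11 on both diets.

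Leaving out 1 library gave 0 to 2 rhythmic genes in Ctrl LD, 0 to 1 in -Trp LD and 1 to 2 in Ctrl DD, 0 to 1 diet differences in LD and 0 to 1 interactions. The near-zero differences then ran from -0.04 to 0.11 (Nms, diet in LD), from -0.04 to 0.05 (Prok2, diet in LD), from -0.09 to 0.03 (Prok2, diet in DD) and from -0.09 to 0.03 (Prok2, interaction).

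Replicate numbers name separate mice and did not pair them (median correlation of same-numbered deviations -0.003 to -0.005 over 276 pairs for each number). A replicate block left the 8 and 4 calls between LD and DD and the 1 interaction as they were. With the block the cosine fit called 2 genes in Ctrl LD and 1 in -Trp LD, without a share of all genes to set beside them. Without counts of reads, the depth that limits low genes such as Prok2 is unknown.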
